A study of Mus musculus with 2 samples.

Results

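The genes of calcium handling in skeletal muscle comprised 8 of the 19465 genes counted, named by symbol: *Atp2a1*, *Atp2a2* and *Sln* for uptake, *Cacna1s* and *Ryr1* for release, *Casq1* and *Casq2* for storage, and *Pvalb* for buffering. All 8 were found, each in 1 row. They carried 550498 of the 9002147 unique molecular identifiers (UMIs, 1 per captured molecule) of the Control section (6.12%) and 155462 of the 4910716 UMIs of the Loaded section (3.17%).

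The 2 sections of mouse femur were measured with Visium for FFPE tissue, in which gene-specific probe pairs hybridize to a 5 μm section and are captured by spots 55 μm wide on a grid with a spacing of 100 μm. Both came from female bone cell reporter (BCR) mice, which carry CRISPR-inserted reporters in *Ibsp*- and *Acp5*-expressing cells, and both mice received a femoral osteotomy under an external fixator at 12 weeks of age. From week 3 to week 5 after surgery, once the defect was bridged, the Loaded mouse received cyclic loading in 3 sessions per week (3000 cycles at 10 Hz, between 8 and 16 N) and the Control mouse was sham-loaded at 0 N. Tissue was collected 10 hours after the last session, at 17 weeks of age. With 1 section from 1 mouse per group, spots are not replicates and no test was possible. Every interval is at the 95% level, covers counting error only and leaves out the variation between mice.

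In a muscle fiber, the membrane depolarization is sensed in the transverse tubule by the voltage-gated channel whose pore-forming subunit is encoded by *Cacna1s*, which opens the ryanodine receptor *Ryr1* of the sarcoplasmic reticulum and lets calcium into the cytosol. The calcium is pumped back by the SERCA pumps (*Atp2a1*, SERCA1, of fast fibers, and *Atp2a2*, SERCA2, of slow fibers, heart and many non-muscle cells), of which the small peptide sarcolipin (*Sln*) is an inhibitor. Within the reticulum the calcium is bound by calsequestrin (*Casq1* in fast and slow skeletal fibers, *Casq2* in slow fibers and heart), and in the cytosol of fast fibers by parvalbumin (*Pvalb*).

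The spots were sorted into classes without the use of any of the 8 genes. Bone spots were those on the study's list of bone barcodes (131 in Control, 146 in Loaded). Outside bone, muscle spots were those with at least 10% of their UMIs from a list of 26 muscle genes. These were divided by their slow share, the percentage of slow transcripts (*Myh7*, *Tnnt1*, *Tnni1*, *Tnnc1*, *Myl3* and *Myl2*) among slow and fast sarcomere transcripts, into fast muscle (below 5%; 858 and 445 spots), intermediate muscle (21 and 44 spots) and slow-fiber-rich muscle (at least 10%; 59 and 208 spots). Other tissue took 781 and 575 spots, and the rest held too few UMIs for a class (112 and 18 spots). The median depth of a spot under tissue was 2189.5 UMIs (Control) and 2629.5 UMIs (Loaded), and 557 barcodes, which mark positions on the slide and not cells, occurred in both sections. The sections cut through different amounts of each class: slow transcripts made up 1.86% of the sarcomere UMIs of the Control section and 11.3% of those of the Loaded section. A spot can hold several fibers, so that fewer fibers of a type and less RNA per fiber cannot be told apart.

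**Figure D1:**
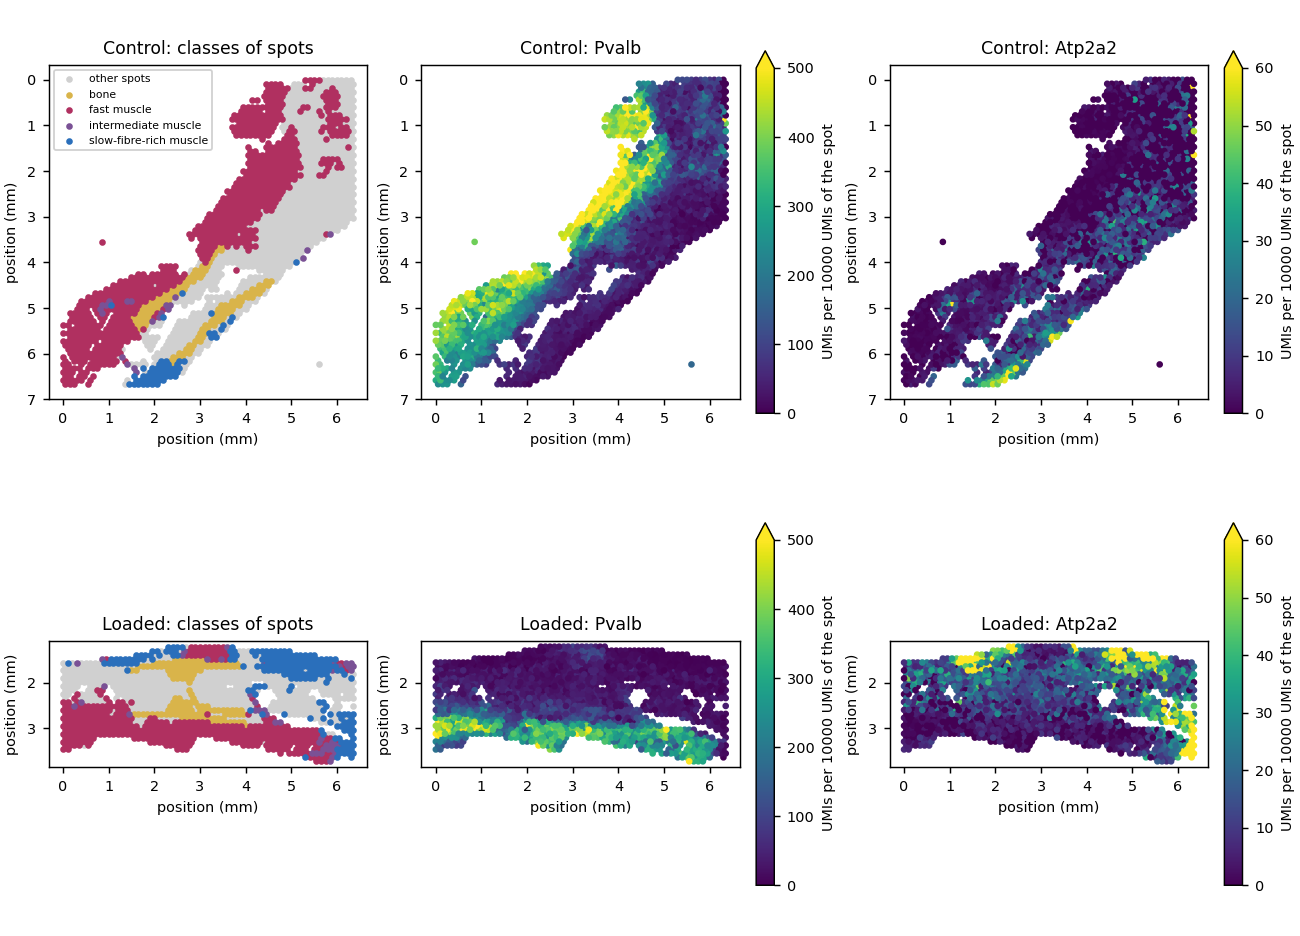
Positions of the spots in mm in the Control (top) and Loaded (bottom) sections, colored by class (left) and by the level of *Pvalb* (middle) and *Atp2a2* (right) in UMIs per 10000 UMIs of the spot, with the highest color also holding all values above it. *Pvalb* follows the fast muscle (red at left), and *Atp2a2* is highest in the slow-fiber-rich muscle (blue at left).

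Promoter sequences are shown for 4 genes that had opposite directions between slow-fiber-rich and fast muscle in both sections, so that they can be compared, 3 of them lower (*Atp2a1*, *Pvalb*, *Casq1*) and 1 higher (*Casq2*) in slow-fiber-rich muscle. Each is the stretch from 250 to 41 bases before the RefSeq start (GRCm38.p6), 5′ to 3′ on the strand of the gene, and capitals mark matches to 2 motifs on either strand, the E-box CANNTG bound by myogenic factors of the MyoD family and the MEF2 site bound by MEF2 factors. They were read from chr7:126463114-126463323 (minus strand) for *Atp2a1*, chr15:78206441-78206650 (minus) for *Pvalb*, chr1:172219936-172220145 (minus) for *Casq1* and chr3:102086165-102086374 (plus) for *Casq2*.
Atp2a1: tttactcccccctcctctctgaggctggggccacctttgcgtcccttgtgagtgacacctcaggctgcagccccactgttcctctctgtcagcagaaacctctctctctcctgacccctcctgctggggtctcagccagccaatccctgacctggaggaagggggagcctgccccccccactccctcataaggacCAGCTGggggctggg
Pvalb: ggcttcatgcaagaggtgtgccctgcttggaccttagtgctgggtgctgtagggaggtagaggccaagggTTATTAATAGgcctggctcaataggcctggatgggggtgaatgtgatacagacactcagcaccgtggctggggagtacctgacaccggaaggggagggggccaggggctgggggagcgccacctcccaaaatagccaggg
Casq1: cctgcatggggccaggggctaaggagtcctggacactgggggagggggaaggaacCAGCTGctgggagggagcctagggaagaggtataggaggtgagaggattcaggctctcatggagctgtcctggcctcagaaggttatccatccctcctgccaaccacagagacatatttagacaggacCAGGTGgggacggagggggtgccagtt
Casq2: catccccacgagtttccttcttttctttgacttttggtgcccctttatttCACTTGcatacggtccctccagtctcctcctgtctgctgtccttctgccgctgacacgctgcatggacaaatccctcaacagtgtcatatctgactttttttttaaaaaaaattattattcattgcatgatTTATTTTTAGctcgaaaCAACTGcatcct
The *Atp2a1* window held 1 E-box and 0 MEF2 sites, the *Casq1* window 2 and 0, the *Casq2* window 2 and 1, and the *Pvalb* window 0 and 1. Entries were found for 6 of the 8 genes. The windows of *Cacna1s* (2 E-boxes, 0 MEF2 sites) and *Ryr1* (0 and 0) and a further *Pvalb* start (1 and 0) are not printed. Of 32851 promoters with windows of the same length, 60.7% held an E-box and 2.50% a MEF2 site, and a match describes letters only. *Atp2a2* and *Sln* had no entry.

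The fast-fiber pump *Atp2a1* (ENSMUSG00000030730, chr7:126445858-126463108) was counted in 237102 UMIs in Control and 68645 in Loaded, of which 89.9% and 63.4% lay in fast muscle. Its level in fast muscle was 335 UMIs per 10000 (334 to 337) in Control and 246 (244 to 248) in Loaded, and 95.2 (91.9 to 98.7) and 110 (109 to 112) in slow-fiber-rich muscle. In single fast muscle spots of Control the level ranged from 38.0 to 524 with a median of 283, and in slow-fiber-rich spots from 26.6 to 240 with a median of 84.4, so that the spots of the classes overlapped. The slow and heart pump *Atp2a2* (ENSMUSG00000029467, chr5:122453513-122502225) had the opposite order. Its level was 2.50 (2.38 to 2.63) in fast and 37.4 (35.4 to 39.6) in slow-fiber-rich muscle of Control, and 4.12 (3.83 to 4.43) and 52.9 (51.5 to 54.3) in Loaded. Unlike *Atp2a1*, it was also higher in other tissue (9.82 in Control, 16.9 in Loaded) and in bone spots (9.06 and 11.6) than in fast muscle, in both sections.

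*Sln* (ENSMUSG00000042045, chr9:53850164-53854560), the pump inhibitor, was scarce, with 762 UMIs in Control and 389 in Loaded. Per 10000 UMIs its level was 0.774 in fast, 2.60 in intermediate and 1.56 in slow-fiber-rich muscle of Control, and 0.474, 0.660 and 1.86 in Loaded. The intervals of intermediate muscle (1.93 to 3.42) and slow-fiber-rich muscle (1.16 to 2.05) of Control overlapped, at 50 UMIs each. Overlap of separate intervals does not decide the order, and no ratio with its own interval was computed for this pair. Its UMIs were unevenly placed: of the 492 in fast muscle of Control, 235 lay in 10 of 858 spots.

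Of the release genes, *Ryr1* (ENSMUSG00000030592, chr7:29003344-29125179), the calcium release channel, had a level of 21.8 (21.4 to 22.1) in fast and 12.4 (11.2 to 13.6) in slow-fiber-rich muscle of Control, and of 18.5 (17.9 to 19.1) and 15.9 (15.2 to 16.7) in Loaded. The span between classes was narrower than for *Atp2a1*. *Cacna1s* (ENSMUSG00000026407, chr1:136052750-136119822), the voltage sensor, was counted in only 406 UMIs in Control and 187 in Loaded. Its levels in fast, intermediate and slow-fiber-rich muscle lay between 0.374 and 0.600 per 10000 in both sections, with intervals that overlapped between all of these classes.

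Of the storage genes, *Casq1* (ENSMUSG00000007122, chr1:172209894-172219868) had levels of 52.6 (52.0 to 53.1) in fast and 18.7 (17.2 to 20.3) in slow-fiber-rich muscle of Control, and of 41.2 (40.3 to 42.2) and 18.1 (17.3 to 18.9) in Loaded. *Casq2* (ENSMUSG00000027861, chr3:102086415-102146514), the slow and cardiac form, had levels of 0.377 (0.331 to 0.428) and 1.28 (0.916 to 1.73) in Control, and of 0.220 (0.157 to 0.301) and 1.72 (1.48 to 1.99) in Loaded. The balance of the pair therefore differed by class. There were 139 *Casq1* UMIs per *Casq2* UMI in fast and 14.7 in slow-fiber-rich muscle of Control, against 187 and 10.5 in Loaded.

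The calcium buffer *Pvalb* (ENSMUSG00000005716, chr15:78191114-78206400) was counted in 252435 UMIs in Control and 58273 in Loaded, and of the genes lower in slow-fiber-rich muscle it had the widest span between the classes in both sections. Its level was 366 (365 to 367) in fast and 39.8 (37.7 to 42.1) in slow-fiber-rich muscle of Control, and 273 (270 to 275) and 14.3 (13.6 to 15.0) in Loaded. Intermediate muscle lay between, at 281 in Control and 112 in Loaded. In fast muscle its median over spots was 330 in Control and 267 in Loaded, and in slow-fiber-rich muscle 30.4 and 10.9.

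**Figure D2:**
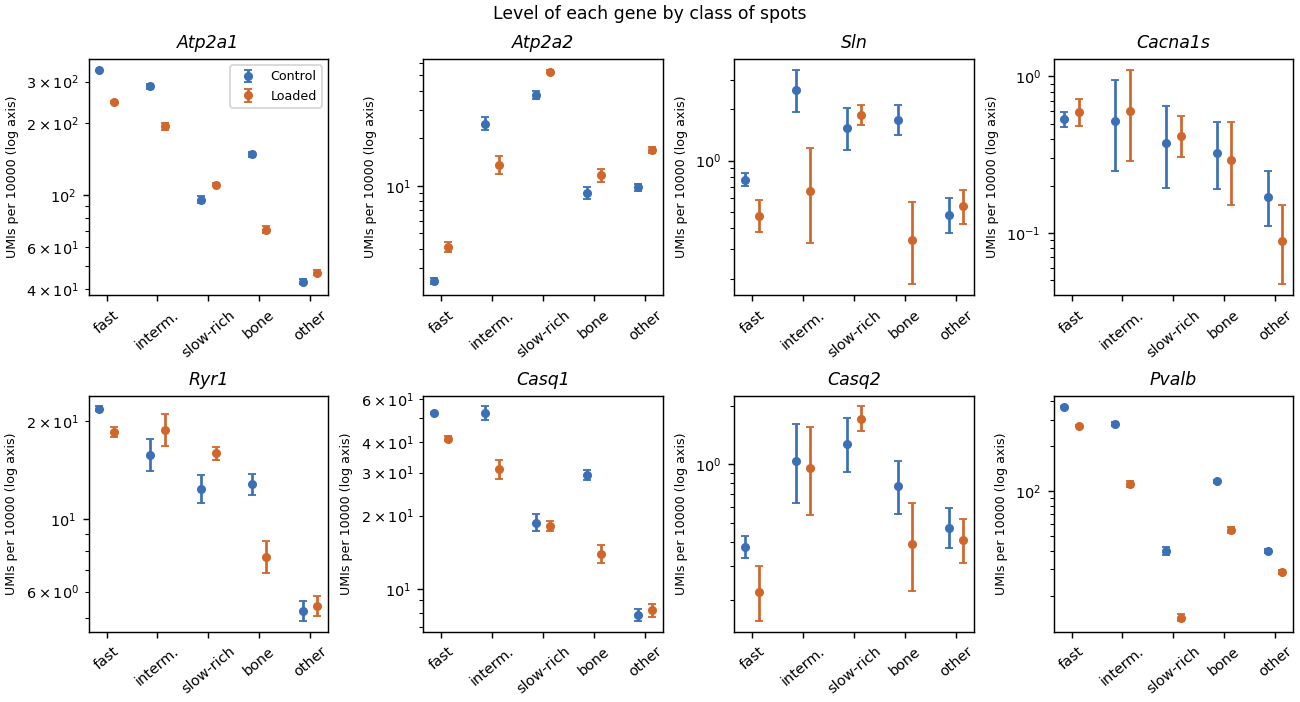
Level of each gene, in UMIs per 10000 UMIs on log axes that differ between panels, in fast, intermediate and slow-fiber-rich muscle, bone spots and other tissue of the Control (blue) and Loaded (orange) sections, with exact binomial 95% intervals for counting error. *Atp2a1*, *Casq1* and *Pvalb* are lower in slow-fiber-rich than in fast muscle in both sections, and *Atp2a2* and *Casq2* are higher.

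Slow-fiber-rich and fast muscle were then set against each other within each section, as log2 ratios of UMIs divided by scran size factors, the normalization of the study. Of the 8 genes, 2 were at least 1.5-fold higher (*Atp2a2* and *Casq2*) and 5 lower in Control, beside 32.1% higher and 22.6% lower of 11647 genes tested, where tested means at least 10 UMIs in the classes compared. In Loaded, 3 were higher (with *Sln*) and 4 lower, beside 14.5% and 11.9% of 11118 genes. The median of the 8 genes was −1.29 in Control and −0.66 in Loaded, beside 0.13 and 0.04 over all genes. Over the muscle list it was lower than for the 8 genes, at −1.52 in Control and −0.83 in Loaded.

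*Atp2a2* was higher in slow-fiber-rich muscle by 3.28 on the log2 scale (3.17 to 3.38; 1203 against 1590 UMIs) in Control and by 3.38 (3.27 to 3.49; 5712 against 730 UMIs) in Loaded. Each class was split by position into 4 blocks as a view of the spread inside a section. The blocks of *Atp2a2*, as UMIs per size factor, lay between 12.7 and 22.8 in slow-fiber-rich and between 0.774 and 2.89 in fast muscle of Control, and between 19.8 and 25 and between 0.930 and 2.56 in Loaded. They did not overlap in either section, a pattern that 2.16% of genes tested showed in this direction in Control and 2.38% in Loaded. *Casq2* also had blocks that did not overlap, with a difference of 1.13 (0.61 to 1.61; 41 against 240 UMIs) in Control and 2.67 (2.16 to 3.20; 186 against 39 UMIs) in Loaded. *Sln* differed by 0.38 (−0.07 to 0.80) in Control, where the interval holds 0, and by 1.67 (1.30 to 2.06; 201 against 84 UMIs) in Loaded, with overlapping blocks in both.

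Among the genes lower in slow-fiber-rich muscle, *Pvalb* had log2 ratios of −3.83 (−3.91 to −3.75; 1280 against 232709 UMIs) in Control and −4.56 (−4.63 to −4.48; 1544 against 48338 UMIs) in Loaded, and *Casq1* of −2.12 (−2.24 to −2.0) and −1.49 (−1.56 to −1.42). The blocks of both genes did not overlap in either section. *Atp2a1* had log2 ratios of −2.44 (−2.50 to −2.39) and −1.45 (−1.48 to −1.43), with blocks that overlapped in Control and did not in Loaded. Blocks that lay wholly lower in slow-fiber-rich muscle were seen for 3.07% of genes tested in Control and 2.22% in Loaded. *Ryr1* had log2 ratios of −1.45 (−1.59 to −1.30) and −0.52 (−0.60 to −0.43), and *Cacna1s* of −1.14 (−2.11 to −0.32; 12 against 339 UMIs) and −0.81 (−1.35 to −0.29; 45 against 105 UMIs).

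The muscle list took a smaller share of UMIs in slow-fiber-rich than in fast spots, at 16.2% against 31.8% in Control and 17.5% against 27.6% in Loaded. The list holds all 8 genes counted as fast sarcomere transcripts but not *Myl3* and *Myl2* of the slow ones, so its share also depends on fiber type. With size factors, 18 of its 26 genes were lower and 8 higher in slow-fiber-rich muscle of Control, and 16 and 10 in that of Loaded. Scaling to the UMIs of the muscle list in place of the size factors added 1.60 to every log2 ratio in Control and 0.96 in Loaded. On this scale *Atp2a2* (4.88 and 4.34), *Casq2* (2.73 and 3.63), *Sln* (1.98 and 2.63), *Pvalb* (−2.23 and −3.60), *Atp2a1* (−0.84 and −0.50) and *Casq1* (−0.52 and −0.53) kept their signs in both sections. *Ryr1* turned positive in both, at 0.16 (0.01 to 0.30) and 0.44 (0.36 to 0.53). *Cacna1s* was above 0 in both, at 0.46 (−0.51 to 1.28) and 0.15 (−0.39 to 0.67), with intervals that held 0. Blocks per 1000 UMIs of the muscle list did not overlap in either section for *Atp2a2*, *Casq2*, *Pvalb* and *Atp2a1*, and overlapped in both for *Casq1*. The share of all genes with such blocks is not given on this scale and can differ from that with size factors, so this pattern cannot be weighed against it. Erythroid markers (3 of 4 listed genes found) had a level of 130 per 10000 in slow-fiber-rich against 14.0 in fast muscle of Control and 42.5 against 32.4 in Loaded, and Schwann cell markers (4 of 4 found) 9.15 against 0.679 and 2.43 against 1.38. Of the cardiac markers, with which *Atp2a2*, *Casq2* and *Sln* are shared in the heart, 29 UMIs in Control (26 of *Tnnt2*) and 93 in Loaded (72 of *Tnnt2*, 0 of *Nppa*) lay in slow-fiber-rich spots. Their part in the result was not tested.

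**Figure D3:**
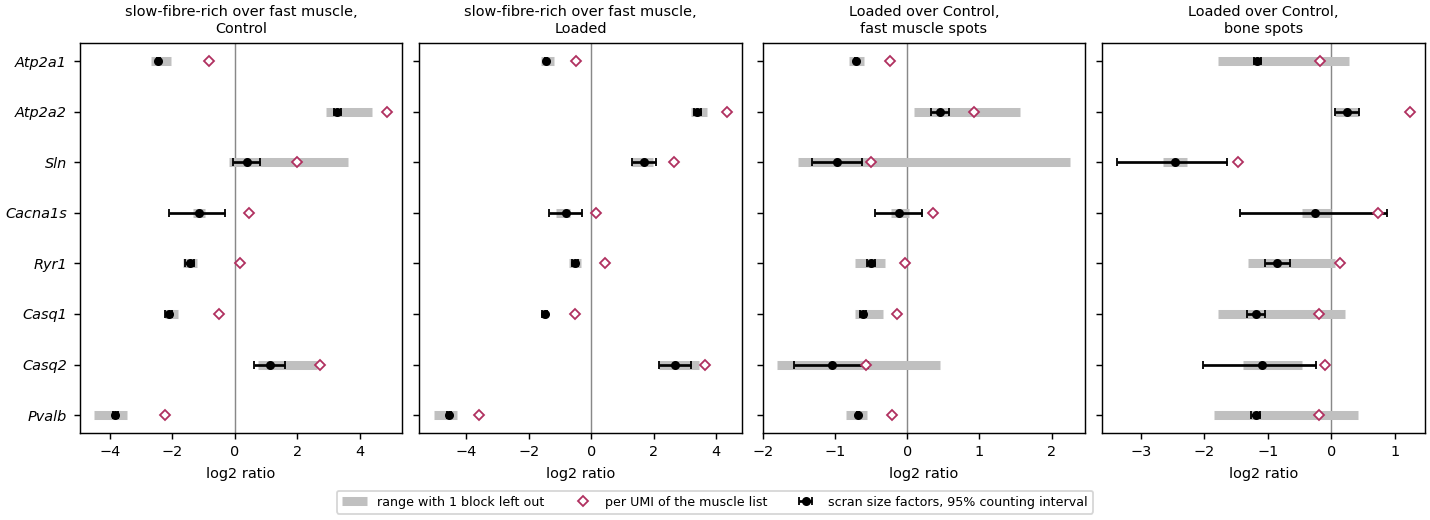
Log2 ratios of the 8 genes in the 4 comparisons. Black points use scran size factors with 95% counting intervals, gray bars span the values with 1 block of a region left out, and red diamonds are scaled to the UMIs of the muscle list. For *Atp2a2* and *Casq2* all marks of both slow-fiber-rich over fast comparisons lie above 0, and for *Pvalb*, *Atp2a1* and *Casq1* all lie below 0.

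Along the slow share, in 6 classes of muscle spots from below 1% to above 50%, the genes did not share 1 course. These levels are per 1000 UMIs of the muscle list. *Atp2a2* was 0.521, 2.60, 9.25, 16, 23.4 and 42.8 in the 6 classes of Control, and 1.09, 2.97, 5.98, 13.7, 25.8 and 49.7 in those of Loaded, higher at each step in both sections. *Pvalb* was 115, 115, 105, 49.7, 15.1 and 11.3 in Control, and 108, 67.4, 49.3, 14.4, 7.09 and 4.09 in Loaded. It stayed level up to a slow share of 5% in Control, while it was already lower in the second class of Loaded. *Atp2a1* was 105, 107, 107, 70.4, 57.3 and 33.8 in Control, and 88.3, 92.7, 85.9, 74.8, 66.3 and 49.7 in Loaded, a narrower span than that of *Pvalb*. The highest class held 5 spots in Control and 55 in Loaded, so that its Control values rest on few spots.

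The exchange of the SERCA pumps is most direct as a ratio within the same spots. *Atp2a1* UMIs per *Atp2a2* UMI came to 202, 41, 11.6, 4.39, 2.45 and 0.789 (0.640 to 0.973) across the 6 classes of Control, and to 81.1, 31.2, 14.4, 5.44, 2.57 and 1.00 (0.952 to 1.05) across those of Loaded. The number of probes for each pump is not known, so that the course of the ratio can be read and its absolute value cannot. *Casq1* was 16, 19.9, 19.6, 12.3, 10.2 and 18.0 in Control, where the last value rests on 5 spots, and 15.4, 13.3, 13.7, 12.2, 10.0 and 9.17 in Loaded, so that apart from the highest Control class it was lower above a slow share of 10% in both sections. The other genes are given at the lowest and highest slow share. *Ryr1* was 7.01 and 9.82, and 6.38 and 9.14. *Casq2* was 0.104 and 1.84, and 0.0680 and 1.17. *Sln* was 0.191 and 1.02 in Control, with its highest value of 1.35 at a slow share of 10 to 25%, and 0.149 and 1.87 in Loaded. *Cacna1s* stayed between 0.135 and 0.614 in Control and between 0.176 and 0.305 in Loaded, with wide intervals.

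**Figure D4:**
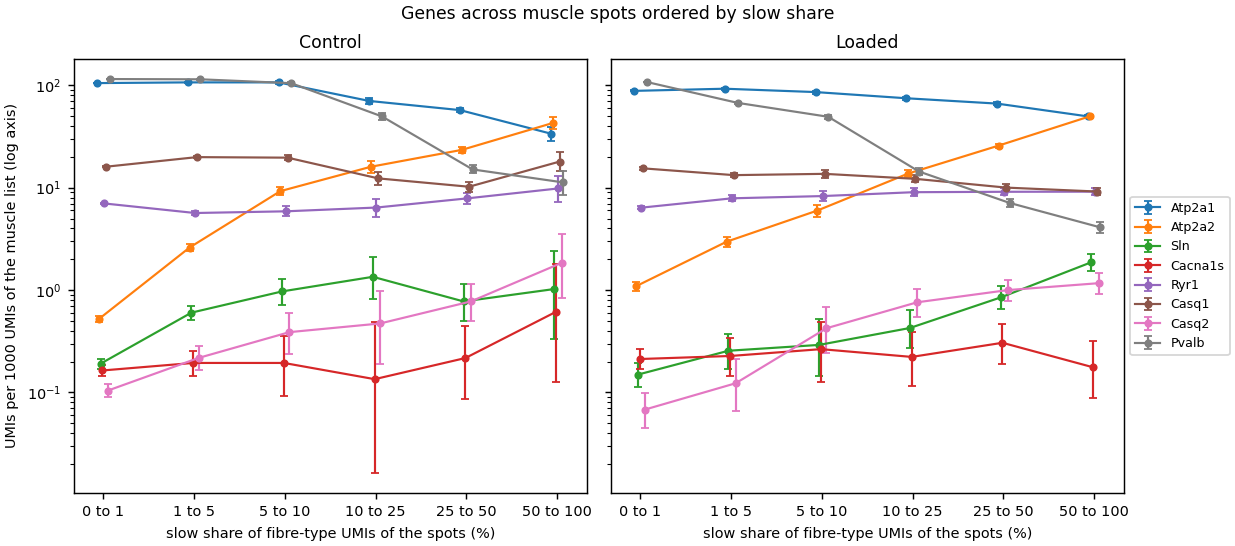
UMIs of each gene per 1000 UMIs of the muscle list (log axis) in muscle spots grouped by slow share, in the Control (left) and Loaded (right) sections, with 95% counting intervals. From the lowest to the highest class, *Atp2a2* goes up (Control 0.521 to 42.8, Loaded 1.09 to 49.7) and *Pvalb* down (Control 115 to 11.3, Loaded 108 to 4.09). Heights are not comparable between genes.

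Over the muscle spots of each section (938 in Control, 697 in Loaded), the genes whose level was most like that of a member were found among 306 abundant genes by the lower of the Pearson correlations of log2(UMIs per 10000 + 1) in the 2 sections. These spots share a library and a depth that varies together, and the correlations are descriptions. *Pvalb* followed *Myh4*, the myosin of the fastest fibers (r = 0.94 in Control and 0.95 in Loaded), then *Mylpf* (0.77 and 0.77) and *Ckm* (0.85 and 0.76). *Atp2a1* followed the glycolytic enzymes *Eno3* (0.80 and 0.83) and *Aldoa* (0.80 and 0.82) and the fast myosin light chain *Mylpf* (0.80 and 0.79). *Atp2a2* followed 3 genes of the slow list, *Myh7* (0.63 and 0.74), *Tnni1* (0.60 and 0.73) and *Tnnt1* (0.59 and 0.74). *Casq1* followed *Mylpf* (0.61 and 0.64), *Tnnc2* (0.60 and 0.64) and *Atp2a1* (0.57 and 0.62), and *Ryr1* followed *Acta1* (0.41 and 0.53), *Atp2a1* (0.40 and 0.41) and *Ttn* (0.39 and 0.50). *Sln*, *Cacna1s* and *Casq2* were too sparse for this measure. Between members the correlation was lowest for *Pvalb* and *Atp2a2* (−0.53 and −0.71).

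The ratio of *Pvalb* to *Myh4* UMIs varied less between classes than *Pvalb* did. There were 52.0 *Pvalb* UMIs per 100 *Myh4* UMIs in fast muscle of Control and 50.1 in Loaded, 58.0 and 60.4 in slow-fiber-rich muscle, 46.8 and 49.3 in bone spots and 53.2 and 48.3 in other tissue. Across the 6 classes of slow share the ratio lay between 51.3 and 79.7 in Control, where the highest rests on 5 spots (54.9 to 115), and between 48.2 and 64.8 in Loaded, while the level of *Pvalb* itself spanned 115 to 11.3 and 108 to 4.09 per 1000 muscle UMIs. *Myh4* is on the muscle list and among the fast transcripts, so all classes except the bone spots were chosen partly by *Myh4* itself. A choice of spots low in *Myh4* raises the ratio, so its higher values in slow-fiber-rich spots cannot be told apart from that choice. *Atp2a2* per 100 *Myh7* UMIs was 33.4 in slow-fiber-rich muscle of Control and 39.5 in Loaded, and was higher in fast muscle (109 and 107). In spots outside bone with only 1 to 2.5% of their UMIs from the muscle list it was 481 (327 to 728; 154 against 32 UMIs) in Control and 119 in Loaded. *Myh7* is on the muscle list and among the slow transcripts, so all of these spots were chosen partly by *Myh7* itself. A choice of spots low in *Myh7* raises this ratio, which therefore cannot show whether *Atp2a2* departs from slow myosin there.

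Across all spots outside bone ordered by muscle share, *Atp2a2* did not take the course of the other pump. In Control, *Atp2a1* went from 8.32 per 10000 in spots with a muscle share under 1% (15 spots) to 364 in those above 30%, and *Pvalb* from 6.40 to 401. *Atp2a2* was 4.00 (25 UMIs) in the former, 7.78 at 1 to 2.5%, 14.1 at 10 to 20% and 2.49 above 30%. In Loaded, *Atp2a2* was 10.3 at 1 to 2.5%, 31.0 at 10 to 20% and 3.96 above 30%. The most muscle-rich spots thus held the least *Atp2a2* in both sections. Their slow share was 0.458% in Control and 0.961% in Loaded. The muscle list holds all the fast transcripts but not *Myl3* and *Myl2* of the slow ones, so a high muscle share itself favors fast spots. This order is therefore not separate from the split by fiber type.

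Of 35 other calcium genes listed by role, 33 were tested between slow-fiber-rich and fast muscle in each section. In Control 3 were at least 1.5-fold higher and 23 lower, and in Loaded 2 higher and 13 lower. These counts stand beside 32.1% higher and 22.6% lower of all genes in Control, and 14.5% and 11.9% in Loaded. All 10 genes of the triad, the junction of tubule and reticulum, were at least 1.5-fold lower in Control, and 6 of them in Loaded. Scaling to the UMIs of the muscle list adds 1.60 to every gene in Control and 0.96 in Loaded. Shares over all genes are not given on that scale. The triad (medians of −1.26 and −0.67 with size factors) and the 33 genes (−1.09 and −0.46) thus stayed below the median of all genes (0.13 and 0.04). On that scale 9 of the 10 triad genes were above 0 in Control (median 0.34) and 8 in Loaded (median 0.29), with 1 and 2 at least 1.5-fold higher. Over the 33 other calcium genes, 29 in Control and 27 in Loaded were above 0 on that scale, and 1 and 2 were at least 1.5-fold lower. Every gene is raised alike by the shift, so these counts do not set the calcium genes apart from other genes. The genes past this fold with at least 50 UMIs in both sections were 13, all lower. Among the largest were the channel subunit *Cacng1* (−2.18 and −1.54), the junctional *Jph2* (−1.41 and −1.26), the kinase *Camk2a* (−2.78 and −1.15) and the calmodulin gene *Calm3* (−1.17 and −1.07). Also among them was the pump inhibitor *Mrln* (myoregulin; −1.58 and −1.69). It rests on few UMIs in slow-fiber-rich muscle, 6 against 229 in Control and 10 against 43 in Loaded. Per UMI of the muscle list, *Cacng1* (−0.57 and −0.59) and *Camk2a* (−1.18 and −0.20) stayed below 0 in both sections, and *Jph2* (0.20 and −0.30), *Mrln* (0.03 and −0.73) and *Calm3* (0.43 and −0.11) had opposite signs in the sections. The pump activator *Strit1* (DWORF), named after its values were seen because its counts were below that rule, was counted in 20 UMIs in slow-fiber-rich against 14 in fast muscle of Control (4.19) and in 76 against 3 in Loaded (5.08).

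Fast muscle was compared between the sections to give a reading of the genes away from bone. The 8 genes together had a log2 ratio of Loaded over Control of −0.68 (−0.69 to −0.67; 103427 against 495685 UMIs). 5 genes were at least 1.5-fold lower, *Atp2a1* (−0.71), *Pvalb* (−0.69), *Casq1* (−0.61), *Sln* (−0.97) and *Casq2* (−1.04), beside 13.9% of 12018 genes tested, and 0 were higher, beside 22.4%. *Ryr1* (−0.50) and *Cacna1s* (−0.11; −0.44 to 0.21) did not reach that fold, and *Atp2a2* was higher by 0.46 (0.33 to 0.58). The median of the 8 genes was −0.65, beside 0.09 over all genes and −0.45 over the muscle list, and the blocks of all 8 genes overlapped between the sections (blocks wholly higher in Loaded were seen for 3.15% of genes tested and wholly lower for 2.24%). Per UMI of the muscle list, the sum differed by −0.21, *Ryr1* by −0.03 and *Atp2a2* by 0.93.

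The values of *Sln*, *Casq2* and *Atp2a2* in this comparison depend on 1 block. In Control, 1 block held 473 of the 492 *Sln* UMIs, 209 of the 240 *Casq2* UMIs and 1323 of the 1590 *Atp2a2* UMIs of fast muscle. This block was large, with 393 of the 858 spots and 141252 of the 213068 *Atp2a1* UMIs of the class. Without it the log2 ratio of *Sln* was 2.26, that of *Casq2* 0.45 and that of *Cacna1s* 0.02, all of the opposite sign, and that of *Atp2a2* was 1.57 in place of 0.46. Leaving out another Control block lowered *Atp2a2* to 0.09, and leaving out a Loaded block to 0.15. In Loaded, 1 block of 27 fast muscle spots stood apart in fiber type: it held 35.3 *Pvalb* UMIs per 1000 muscle UMIs against 93.7 to 115 in the other 3 blocks, and 41.6 of *Myh4* against 187 to 225, while *Myh1*, the myosin of type IIX fibers, was at 163 against 13.6 to 30.9. *Atp2a1* was at 105 in this block against 83.5 to 93.5. *Pvalb* and *Myh4* were both low in this block, and *Atp2a1* was not, but *Pvalb* was less low than *Myh4*, with 84.8 *Pvalb* UMIs per 100 *Myh4* UMIs (78.2 to 92.0) against 49.0 to 51.3 in the other 3 blocks. Smooth muscle markers (4 of 4 found) had a level of 8.81 per 10000 in fast muscle of Loaded and 1.44 in Control, with 1418 UMIs in 1 other Loaded block, and their part in the result was not tested.

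In the bone spots, the comparison of the study, the 8 genes together had a log2 ratio of Loaded over Control of −1.10 (−1.14 to −1.06; 6568 against 17742 UMIs). 6 genes were at least 1.5-fold lower, beside 21.0% of 10003 genes tested, and 0 were higher, beside 23.1%. The median of the 8 genes was −1.13, beside 0.03 over all genes. *Atp2a1* differed by −1.16 (−1.23 to −1.10; 2918 against 8251 UMIs), *Pvalb* by −1.19 (−1.26 to −1.12; 2249 against 6483), *Casq1* by −1.18 (−1.32 to −1.05; 570 against 1633), *Casq2* by −1.09 (−2.02 to −0.23; 16 against 43) and *Ryr1* by −0.85 (−1.05 to −0.66; 313 against 712). *Cacna1s* had 12 against 18 UMIs (−0.25; −1.44 to 0.88). *Sln* had the lowest value, −2.46 (−3.38 to −1.64; 14 against 97 UMIs), and *Atp2a2* was higher by 0.25 (0.07 to 0.43; 476 against 505 UMIs).

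These values moved with the muscle RNA in the bone spots. The muscle list took 14.9% of the UMIs of Control bone spots and 8.07% of Loaded ones, with 20 of its 26 genes at least 1.5-fold lower and a median of −1.02. Per UMI of the muscle list, the sum of the 8 genes differed by −0.11, and *Atp2a1* (−0.17), *Pvalb* (−0.20) and *Casq1* (−0.19) were close to 0. *Casq2* was at −0.10 (−1.03 to 0.76), *Ryr1* at 0.14 (−0.06 to 0.33) and *Cacna1s* at 0.74 (−0.45 to 1.88), each with an interval that held 0. On this scale *Atp2a2* was at 1.24 and *Sln* at −1.47.

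The muscle RNA in Control bone was concentrated in 1 block. Of the 4 blocks of the Control bone spots (2 on each side of a line along the region), block 1 held 46 spots, of which 33 touched a muscle spot, and 13196 of the 17742 UMIs of the 8 genes. The sum in UMIs per size factor was 250, 105, 45.7 and 34.6 in the 4 blocks of Control, at muscle shares of 25.4, 11.9, 9.18 and 6.24%, and 31.4, 62.8, 74.8 and 75.1 in those of Loaded, at muscle shares between 5.72 and 11.1%. Without Control block 1 the ratio of the sum was 0.26, and those of *Atp2a1* (0.27), *Pvalb* (0.42), *Casq1* (0.22) and *Ryr1* (0.06) were of the opposite sign too. In bone spots with a muscle share below 5% (22 in Loaded, 16 in Control) the sum differed by 0.13 (−0.03 to 0.29) and *Atp2a1* by 0.14 (−0.11 to 0.39). The muscle list took 3.73% of the UMIs of these spots in Loaded and 3.07% in Control. In bone spots with no adjacent muscle spot (103 and 76) the sum differed by −0.53 (−0.59 to −0.47). Such spots were not free of muscle RNA, with muscle shares of 7.45% in Loaded and 10.2% in Control.

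**Figure D5:**
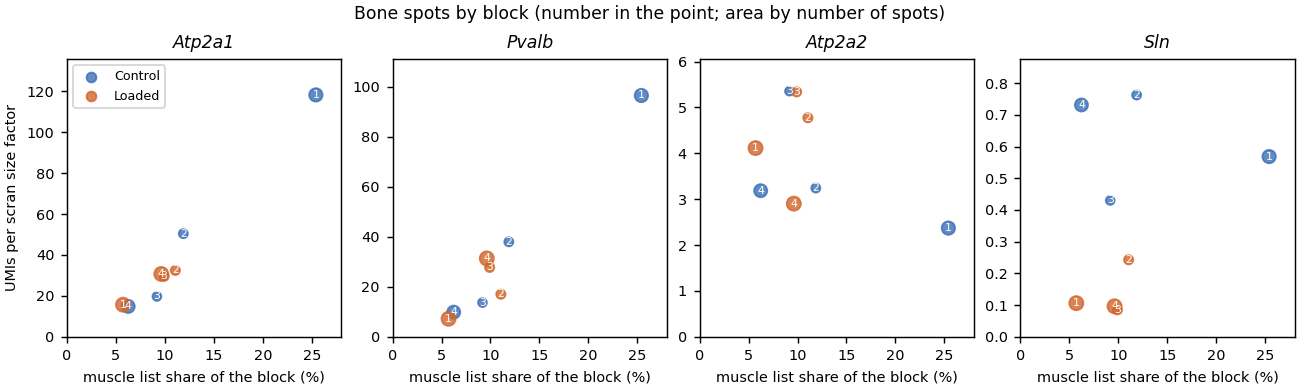
UMIs per scran size factor of 4 genes in the 4 blocks of bone spots of the Control (blue) and Loaded (orange) sections, against the muscle list share of the block in %. *Atp2a1* and *Pvalb* are highest in Control block 1, at a muscle share of 25.4%, while *Sln* is higher in all 4 Control blocks (0.430 to 0.763) than in the Loaded blocks (0.0847 to 0.243).

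*Atp2a2* did not follow the muscle share in bone. Its blocks were 2.37, 3.24, 5.35 and 3.18 UMIs per size factor in Control and 4.11, 4.77, 5.34 and 2.90 in Loaded, the lowest of them in the block that held the most muscle RNA, and they overlapped between the sections. In bone spots with a muscle share below 5% it was higher in Loaded by 1.07 (0.54 to 1.62; 101 against 43 UMIs), and in those with no adjacent muscle spot by 0.31 (0.07 to 0.54). Per 1000 UMIs of the muscle list its blocks were 2.17, 7.39, 17.9 and 16.1 in Control, at slow shares of 2.02, 2.45, 27.4 and 24.0%, and 22.5, 12.6, 15.2 and 8.73 in Loaded, at slow shares of 17.3, 10.0, 9.82 and 4.2%. The lowest value of each section was in the block with the lowest slow share. Osteoblast markers (5 of 5 found) had a level of 646 per 10000 in Loaded and 199 in Control bone spots, and granulocyte markers (5 of 5) of 33.9 and 7.79, and their part in the result was not tested. *Atp2a2* per 100 *Myh7* UMIs was 38.6 in Control and 78.7 in Loaded bone spots.

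*Sln* was the 1 gene of the 8 whose blocks did not overlap in bone, at 0.568, 0.763, 0.430 and 0.731 UMIs per size factor in Control and 0.106, 0.243, 0.0847 and 0.0959 in Loaded, a pattern shown in this direction by 2.17% of genes tested and in the other direction by 3.36%. The counts are small, with 30, 8, 11 and 48 UMIs in the Control blocks and 6, 3, 1 and 4 in the Loaded ones. Per 1000 UMIs of the muscle list the blocks overlapped, at 0.521 to 3.69 in Control and 0.242 to 0.640 in Loaded. The Control UMIs were spread over 58 of 131 spots and the Loaded ones over 14 of 146. The difference was as large in bone spots with no adjacent muscle spot (−2.42, −3.71 to −1.33; 8 against 50 UMIs). The muscle list still took 7.45% of the UMIs of these spots in Loaded and 10.2% in Control. Below a muscle share of 5% only 4 and 2 UMIs were left (0.84; −1.96 to 4.31), so that no difference could be detected there. Per 1000 *Atp2a1* UMIs there were 11.8 *Sln* UMIs in Control and 4.80 in Loaded bone spots, against 2.31 and 1.93 in fast and 16.3 and 16.9 in slow-fiber-rich muscle. Beside it, the Schwann cell markers were counted in 351 UMIs in Control and 85 in Loaded bone spots, and the cardiac markers in 90 and 12, of which *Tnnt2* gave 86 and 11 and *Myh6* and *Nppa* were at 0 in Loaded. The 4 Control blocks held 10, 1, 19 and 56 *Tnnt2* UMIs, beside 30, 8, 11 and 48 *Sln* UMIs. The part of Schwann cells or of cells with *Tnnt2* in the result was not tested.

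Of the other calcium genes, 31 were tested in bone, of which 3 were at least 1.5-fold higher in Loaded and 12 lower, beside 23.1% and 21.0% of all genes, with a median of −0.47 beside 0.03. 7 of the 10 triad genes were at least 1.5-fold lower. Scaling to the UMIs of the muscle list adds 0.99 to every gene, and shares over all genes are not given on that scale. The triad (median −0.81 with size factors) and the 31 genes thus stayed below the median of all genes. On that scale 8 of the 10 triad genes were above 0 (median 0.18) and 1 was at least 1.5-fold lower. Of the 31 genes 26 were above 0, 14 at least 1.5-fold higher and 3 lower. The shift raises every gene alike, so these counts do not set the calcium genes apart from other genes. Among genes with at least 50 UMIs, 12 were lower, and the 6 largest were the reticulum protein sarcalumenin *Srl* (−2.31; 11 against 69 UMIs), the channel subunits *Cacnb1* (−1.75; 20 against 85) and *Cacng1* (−1.02; 40 against 102), *Camk2a* (−1.63; 12 against 47), the histidine-rich calcium-binding protein *Hrc* (−1.39; 82 against 271) and *Jph2* (−0.94; 75 against 181). The gene that was higher by this rule was *Atp2a3* (SERCA3, the pump of blood and endothelial cells; 1.16, 0.37 to 1.99; 39 against 22 UMIs).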

How the data were processed

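The authors obtained UMI counts for each gene in each spot from the sequenced probe libraries with Space Ranger (2.0.0 in the matrix header; mm10, R 4.3.1 and Seurat are named in the submitters' processing notes), and the deposited values are raw counts, with no normalization, for every spot under tissue. Spot positions came with them. Gene coordinates were taken from GENCODE M21 (GRCm38), in which 19451 of 19465 identifiers were found.

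Spots needed at least 500 UMIs and 250 genes, and muscle spots at least 50 UMIs of fast and slow sarcomere genes. The muscle list held *Acta1*, *Ckm*, *Myh4*, *Myh1*, *Myh2*, *Myh7*, *Mylpf*, *Myl1*, *Tnnt3*, *Tnni2*, *Tnnc2*, *Tnnt1*, *Tnni1*, *Tnnc1*, *Tpm2*, *Actn3*, *Actn2*, *Mb*, *Neb*, *Ttn*, *Des*, *Tcap*, *Myoz1*, *Pygm*, *Eno3* and *Ampd1*, and none of the 8 members. Bone spots were taken from the study's supplementary list of barcodes. Sums of UMIs over a class were divided by summed scran size factors (R 4.3.3, scran 1.30.0), computed for each of 4 comparisons over the spots compared. The authors tested spots with DESeq2 after the same normalization, which was not repeated, since 1 section per group gives no replicates. Intervals (95%) are exact Poisson for sums, exact binomial for levels and exact conditional binomial for ratios (Python 3.11.15, numpy 2.4.6, scipy 1.17.1, pandas 2.3.3, figures with matplotlib 3.10.9). Genes needed at least 10 UMIs over the spots compared, folds against 0 UMIs used a floor of 3 UMIs, and none was given where both sums were at or below it. Levels are compared within a gene only, since probe numbers per gene are not given in the sources used here. Blocks split each class at its median position along and across the femur. Bone spots were split across it midway between their 2 sides, as found from spot positions alone.

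All 8 members are named. Other calcium genes are named with at least 50 UMIs and at least 1.5-fold in both sections, or in bone, up to 6 per direction, of which 1 is not reported here, and like genes as the 3 highest for members with at least 1 UMI per muscle spot in both sections. Alternatives were library totals, totals without the 20 most abundant genes, UMIs of the muscle list, equal weight for every spot, no spot filter, other limits on muscle and slow share, 50 UMIs, 2-fold, and each block left out. The ratio and its interval were tested on simulated Poisson counts scaled to library totals, which hold no spread between spots and no blocks. The members, lists and rules were chosen with earlier results of these data known.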

Additional observations from a re-analysis of the deposited data

How the results depend on the processing

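No paired analysis was possible because each group holds 1 section. The depth limits *Sln*, *Casq2* and *Cacna1s* most, and 1 mouse per group limits every comparison between sections. All values below are log2 ratios, and the causes of their shifts were not tested. The sum of the 8 genes in bone (−1.10) was −0.99 with library totals, −1.04 without the 20 most abundant genes, −0.11 per UMI of the muscle list, −0.71 with equal weight for every spot, −0.53 without spots adjacent to muscle and 0.13 below a muscle share of 5%. It ranged from −1.70 to 0.26 with 1 block left out. In fast muscle (−0.68) the sum was −0.42, −0.59, −0.21 and −0.24 under the first 4 of these, −0.49 at a muscle share of at least 20% and −0.73 at 5%, and ranged from −0.73 to −0.59. The difference of *Atp2a2* between slow-fiber-rich and fast muscle in Control (3.28) was 3.90 with library totals, 4.88 per UMI of the muscle list, 3.46 with equal weight, 2.71 at a muscle share of at least 5%, 4.27 for the highest 10% of slow shares against those below the median and 3.43 with myosins only, and ranged from 2.91 to 4.39. In Loaded (3.38) it was 3.68, 4.34 and, at a muscle share of 5%, 2.97, with 3.53 and 3.26 at slow shares of at least 20% and 5%, and 4.32 for the highest 10%, and ranged from 3.19 to 3.70.

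Signs turned in bone for *Atp2a1* (0.14) and *Sln* (0.84) below a muscle share of 5%, and for *Ryr1* (0.14) and *Cacna1s* (0.74) per UMI of the muscle list. Each of these turned values had an interval that held 0. With 1 block left out, *Atp2a1* ranged from −1.78 to 0.27, *Ryr1* from −1.31 to 0.056, *Casq1* from −1.78 to 0.22 and *Pvalb* from −1.84 to 0.42, each positive without Control block 1. In fast muscle *Cacna1s* turned with library totals (0.15), per UMI of the muscle list (0.36), with equal weight (0.060) and at a muscle share of at least 20% (0.078). Without Control block 3, 3 genes turned in fast muscle, and with 1 block left out *Cacna1s* ranged from −0.23 to 0.025, *Sln* from −1.52 to 2.26 and *Casq2* from −1.80 to 0.45. Between slow-fiber-rich and fast muscle, signs turned per UMI of the muscle list for *Ryr1* (0.16 in Control, 0.44 in Loaded) and *Cacna1s* (0.46 and 0.15, with intervals that held 0). In Control they turned for *Sln* at a slow share of at least 20% (−0.042) and with 1 block left out (−0.17 to 3.62), positive again except without slow-fiber-rich block 2 or fast block 2. No filter on spots turned no sign. At 2-fold in place of 1.5-fold, 5 members were lower in bone (9.81% of genes), 1 in fast muscle (*Casq2*; 4.94%), 5 in slow-fiber-rich muscle of Control (11.8%) and 3 in that of Loaded (4.71%), and the members higher stayed at 2 (19.7%) and 3 (5.01%). At least 50 UMIs left *Cacna1s* untested in bone and moved no count of members. Library totals add 0.63 in Control and 0.30 in Loaded to every ratio of slow-fiber-rich over fast muscle. With them *Cacna1s* no longer reached 1.5-fold lower in either section, and *Sln* reached 1.5-fold higher in Control.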
